A study of Mus musculus with 36 samples.

Results

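The comparison is between early night and day in the suprachiasmatic nucleus (SCN), the hypothalamic pacemaker of mammals, in mice that were given the drug U0126 and then a light pulse. It took the 3 U0126-Light arrays at circadian time (CT) 15 against the 3 U0126-Light arrays at CT4, 6 of the 36 arrays of the series, and every gene that could be read under 1 gene symbol, 30176 genes from 65956 probe sets tested. U0126 inhibits MEK1 and MEK2, the kinases that activate ERK. At both times C57BL/6J mice of 8 to 14 weeks, kept in darkness for 2 days, received U0126 (10 mM, in a volume on which labels and methods differ) in the lateral ventricle, and 30 min later a 10 min pulse of light of 100 lux. U0126-Light CT15 animals were pulsed in the early subjective night, and U0126-Light CT4 animals in the middle of the subjective day. The paper calls the same hours zeitgeber times. It reports mice of both sexes, and the sex read from each array is given below. The series description and the methods place the collection 50 min after the end of the pulse, which is 60 min after its onset, while the sample labels count 60 min from its end. The other 3 treatments at these times were U0126-Sham (drug, no light), DMSO-Light (vehicle and light) and DMSO-Sham (vehicle, no light), with 3 arrays per treatment and time. Each array held RNA of the SCN of 2 pooled mice, cut from a brain slice, so that neighbouring tissue could be included and fewer cells of a type cannot be told apart from less RNA per cell. Both groups carry the drug and the light, so the contrast is of time of day, including any response to drug and light that depends on the time.

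The cells of the SCN keep time by a feedback loop of transcription. BMAL1 (gene Arntl) with CLOCK or NPAS2 drives Per, Cry, Nr1d1 and Dbp through E-box elements, PER and CRY proteins repress that drive, and the REV-ERB proteins (Nr1d1, Nr1d2) and ROR proteins set the level of Arntl. Outputs of the loop include the peptide vasopressin and the secreted signal prokineticin 2, and in the early night light acts through glutamate, calcium and ERK to reset it. Light at midday in darkness-kept animals does little to the phase.

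Each value below is the deposited log2 level of a probe set, so that 1 unit is a doubling, and each difference is U0126-Light CT15 minus U0126-Light CT4. A gene passed when limma's adjusted p was at most 0.1 and the fold above 1.3. The 36 arrays had medians of 4.51 to 4.66, no pair was identical, and each array's mean correlation with the others was at least 0.986. Levels of the SCN factors Six6 (7.14, 7.22 and 7.84 at CT15, and 7.07, 6.95 and 7.13 at CT4) and Lhx1 (7.03, 7.07 and 7.42 at CT15, and 6.86, 6.87 and 6.93 at CT4) lay well above those medians in every array. Both were higher at CT15, most of all in CT15 replicate 3. The mean level of 12 SCN identity factors was 6.75 to 6.87 in the CT15 arrays and 6.68 to 6.70 in the CT4 arrays. What part SCN content had in the differences below was not tested.

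Of the 30176 genes, 168 (0.557%) passed, 86 higher at CT15 (0.285%) and 82 lower (0.272%). Over all 65956 probe sets 922 (1.4%) passed, 771 higher and 151 lower, and 675 of the higher ones had no gene symbol. Protein-coding genes leaned the other way from the rest: 25 of 19050 were higher and 64 lower (0.467% passed). Among the remaining classes the passed genes were mostly higher at CT15. Of 597 miRNA genes 13 were higher and 1 lower (2.35% passed), and of 915 small nuclear RNA genes 9 and 1 (1.09%). Of 955 small nucleolar RNA genes 7 were higher and 0 lower (0.733%), and of 4285 pseudogenes 24 and 13 (0.863%). The shares of the small nucleolar RNA genes and pseudogenes were near the 0.557% of all genes. With the adjusted p alone and no fold limit, 264 genes were higher and 850 lower. The median difference was 0.0105 over the genes and 0.0388 over all probe sets. It was −0.0101 over protein-coding genes, 0.0617 over miRNA, 0.125 over small nuclear RNA and 0.0686 over small nucleolar RNA genes, and 0.0199 over pseudogenes. The 3 arrays of each time did not overlap in 7875 genes (26.1%), and an exact two-sided permutation test of 3 against 3 arrays cannot give a p under 0.1. The number of calls depended on single arrays. Without CT15 replicate 3 40 genes passed, of which 34 were among the 168, and without CT15 replicate 1 309 passed, 152 of them among the 168. Without CT15 replicate 2 and CT4 replicates 1, 2 and 3 the numbers were 93, 125, 112 and 92. In a fit of the 6 arrays alone 3 genes passed, and 25 of the 168 kept the call whichever array was left out.

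The promoter stretches of 4 genes are shown because they belong to genes with large differences and hold the letters of a clock element. They are 100 bases each from RefSeq (GRCm38.p6), 5′ to 3′ on the strand of the gene, all upstream of its start, with the element in capitals. In Avp (chr2:130582675-130582774, minus strand) and Prok2 (chr6:99726475-99726574, minus strand) it is the E-box CACGTG, which begins 139 and 135 bases before the start. In Fabp7 (chr10:57784705-57784804, plus strand) and Prokr2 (chr2:132385539-132385638, minus strand) it is AGGTCA, the core of the element bound by ROR and REV-ERB proteins, in Fabp7 on the other strand (TGACCT), beginning 171 and 144 bases before the start.
Avp: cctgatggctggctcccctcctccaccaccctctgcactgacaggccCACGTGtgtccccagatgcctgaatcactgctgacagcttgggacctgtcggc
Prok2: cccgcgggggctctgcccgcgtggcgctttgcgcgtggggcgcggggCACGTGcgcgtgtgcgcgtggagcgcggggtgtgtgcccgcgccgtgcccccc
Fabp7: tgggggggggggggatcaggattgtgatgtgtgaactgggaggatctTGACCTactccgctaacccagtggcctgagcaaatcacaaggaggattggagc
Prokr2: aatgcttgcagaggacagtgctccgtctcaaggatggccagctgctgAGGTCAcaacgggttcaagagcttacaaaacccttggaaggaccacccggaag

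Motifs were searched on both strands of the 300 bases around each start (250 before and 50 after). CACGTG stood in the promoter of 8 of the 53 lower genes that have one in the reference (15.1%), of 1 of 23 higher genes (4.35%) and of 1610 of 17972 measured genes (8.96%). The 8 lower genes were Ache, Atp6v0d1, Avp, Cfap57, Ntsr2, Prelid1, Prok2 and Slc38a5. Nr1d1 and Dbp, named above as driven through E-boxes, also passed lower but were not among these 8. AGGTCA stood in 8 of 53 lower genes (15.1%), 4 of 23 higher genes (17.4%) and 16.7% of measured genes. TTANGTA, 7 letters of the D-box bound by DBP and its relatives, stood in 2 of 53 lower genes (3.77%), 1 of 23 higher genes (4.35%) and 7.02% of measured genes. These shares are descriptions of letters near the start, without a test.

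The clock genes differed modestly between the times. Of 18 core clock genes measured, 1 passed, Nr1d1, and of the 4 PAR bZIP output factors 1 passed, Dbp. Both were lower at CT15. Nr1d1, which encodes the repressor REV-ERBα, read 8.13, 8.20 and 8.18 at CT15, against 8.96, 8.91 and 8.76 at CT4. The 3 night values sat within 0.1 of each other and all lay below the day values, and the difference was −0.70 ± 0.094 (SE, n = 3 each; limma adjusted p 9.45e-04). Dbp, a transcription factor driven directly by the E-box loop, read 8.17, 7.93 and 8.04 at CT15, against 8.53, 8.45 and 8.47 at CT4, without overlap (−0.44 ± 0.074; limma adjusted p 0.00705). Both calls held whichever array was left out.

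**Figure D1:**
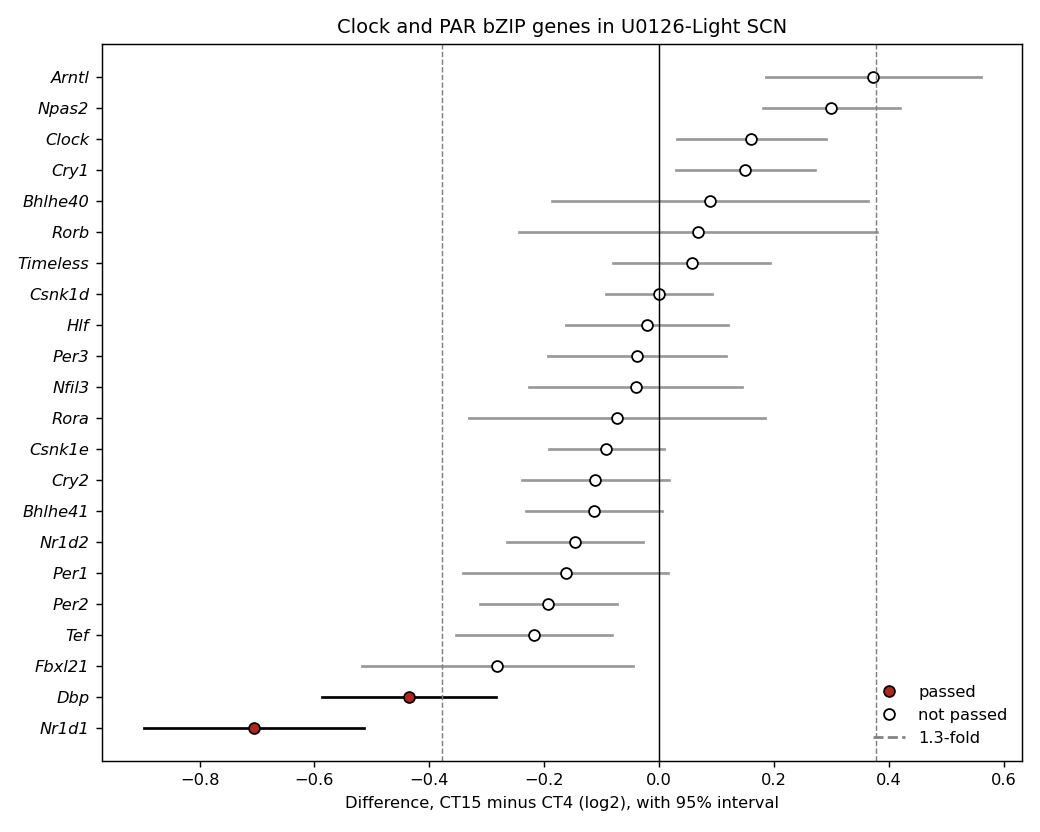
Difference of CT15 minus CT4 (log2, x axis) for the 18 core clock genes and 4 PAR bZIP factors measured (y axis), with 95% intervals from the fit of 36 arrays. Nr1d1 and Dbp lie beyond the 1.3-fold lines on the lower side and passed, while Arntl and Npas2 have intervals above 0 but estimates inside the lines.

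On the positive arm, Arntl read 8.01, 8.04 and 8.26 at CT15, against 7.80, 7.62 and 7.77 at CT4. Its 3 night values were all above the day values, but the difference of 0.37 ± 0.091 lay just inside the 1.3-fold limit (limma adjusted p 0.0378). Npas2, a partner of BMAL1 in place of CLOCK, read 7.28, 7.32 and 7.45 at CT15, against 7.12, 7.0 and 7.04 at CT4, again without overlap and again under the fold limit (0.30 ± 0.058; limma adjusted p 0.0117). Clock itself differed by 0.16 (adjusted p 0.202). On the negative arm Per2 read 7.20, 7.14 and 7.21 at CT15, against 7.39, 7.35 and 7.38 at CT4 (−0.19 ± 0.058; limma adjusted p 0.0891), a small difference that did not overlap. Per1 read 7.63, 7.59 and 7.59 at CT15, against 7.86, 7.84 and 7.59 at CT4. CT4 replicates 1 and 2 stood above the night values and CT4 replicate 3 was level with them, and its difference of −0.16 (95% interval −0.341 to 0.0155) did not pass. Per3 differed by −0.0389, Cry1 by 0.15, Cry2 by −0.11 and Nr1d2 by −0.15, with adjusted p between 0.198 and 0.852. Of the PAR bZIP relatives, Tef differed by −0.22 (adjusted p 0.094) and Hlf and the repressor Nfil3 by −0.0202 and −0.0407. The median difference was −0.0559 over the core clock list and −0.129 over the 4 PAR bZIP factors.

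Of 17 measured genes for the peptides and receptors by which SCN neurons signal, 3 were higher at CT15, all receptors (Vipr2, Avpr1a and Prokr2), and 2 were lower, both ligands (Avp and Prok2), where 0.557% of all genes passed. The list was chosen with these genes' behaviour known, and the count describes it. Avp, which encodes vasopressin, the peptide of the SCN shell, read 10.21, 9.45 and 9.64 at CT15, against 11.32, 11.02 and 10.82 at CT4. Every night array was lower than every day array, by 2.44-fold on average (−1.29 ± 0.26; limma adjusted p 0.0132). Avpr1a, which encodes the V1a receptor for vasopressin, went the other way, with 7.40, 7.37 and 7.81 at CT15, against 6.65, 6.60 and 6.64 at CT4 (0.90 ± 0.18; limma adjusted p 0.0127). Prok2, which encodes a secreted signal of SCN output, read 5.64, 5.36 and 5.06 at CT15, against 6.38, 6.11 and 5.92 at CT4 (−0.79 ± 0.19; limma adjusted p 0.0364). Its receptor gene Prokr2 read 8.06, 8.10 and 8.40 at CT15, against 7.54, 7.37 and 7.50 at CT4 (0.71 ± 0.19; limma adjusted p 0.0557). For both the vasopressin and the prokineticin pair, then, the ligand was lower and the receptor higher at CT15. The largest differences were named only where the arrays did not overlap, so that separation adds no support. Vipr2, which encodes the VPAC2 receptor that couples SCN neurons, read 8.76, 8.81 and 9.27 at CT15, against 7.98, 7.76 and 7.92 at CT4, a 2.08-fold difference (1.06 ± 0.24; limma adjusted p 0.0251).

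CT15 replicate 3 had the highest Vipr2, Avpr1a and Prokr2 and the lowest Prok2 of the 3 night arrays, and also the highest Six6 and Lhx1. Without it the adjusted p was 0.179 for Vipr2, 0.131 for Avpr1a, 0.257 for Prokr2, 0.223 for Prok2 and 0.102 for Avp, and none of the 5 passed. Vipr2, Avpr1a and Avp kept the call when any of the other 5 arrays was left out. Prokr2 passed only without CT15 replicate 1, and Prok2 only without CT15 replicate 1 or CT4 replicate 3. All 5 kept their sign in each case. Prok2 and Prokr2 also lost the call with the mean level of Y-linked genes as a covariate, and kept it with Xist.

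Vip, the ligand of VPAC2, read 9.72, 9.66 and 9.91 at CT15, against 9.14, 9.12 and 8.87 at CT4. The arrays did not overlap, but the spread of this gene over the series was wide and it did not pass (0.72 ± 0.27; limma adjusted p 0.184). Grpr, the receptor for gastrin-releasing peptide, was similar (0.52, adjusted p 0.21). Adcyap1r1, which encodes the PACAP receptor PAC1, read 9.08, 9.09 and 8.97 at CT15, against 9.26, 9.30 and 9.37 at CT4, a difference past the p threshold but under the fold limit (−0.27 ± 0.067; limma adjusted p 0.0409). Sst, Nms and Cck, which encode somatostatin, neuromedin S and cholecystokinin, differed by −0.0719, 0.0571 and −0.0866.

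**Figure D2:**
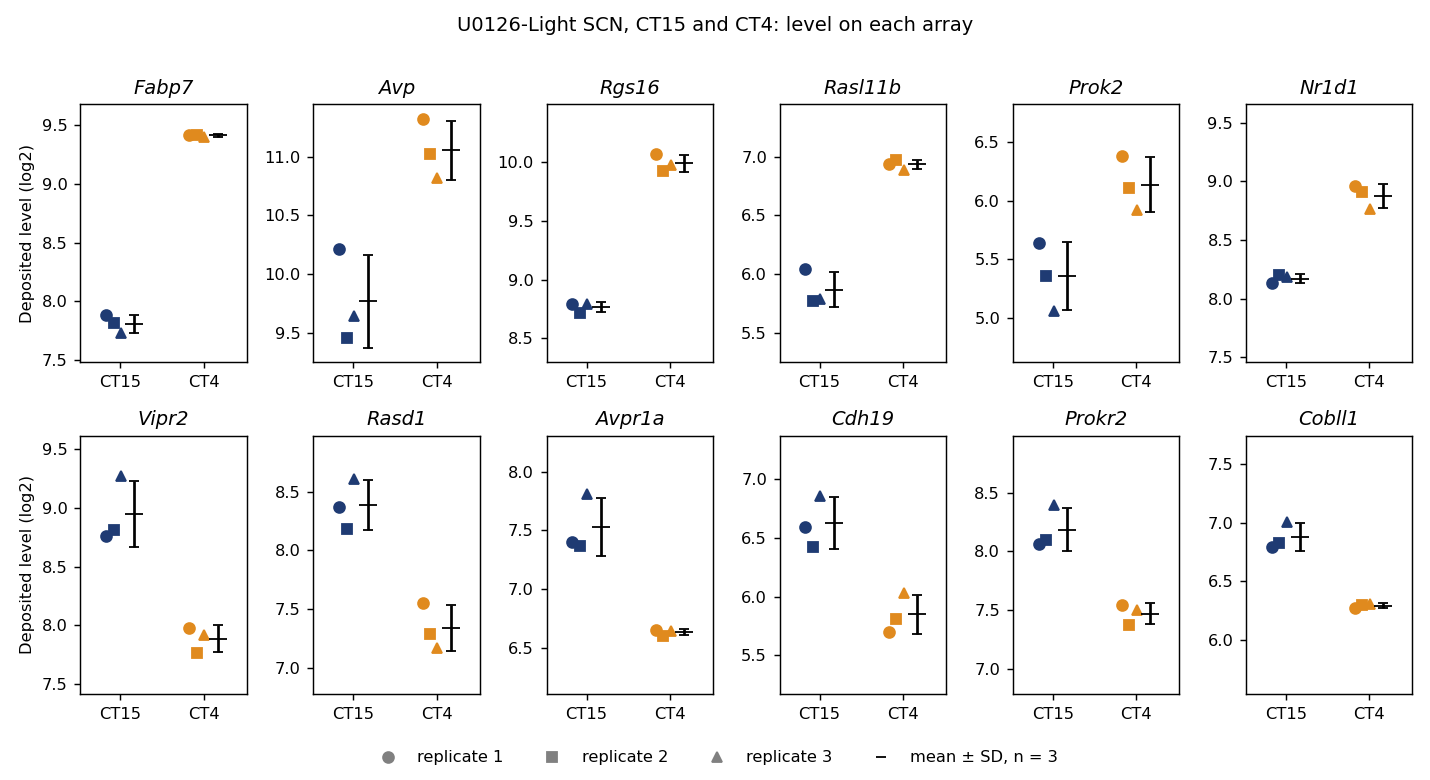
Deposited level (log2, y axis; each panel spans 2.2 units, at its own place) of 12 genes on each U0126-Light array at CT15 (blue, left) and CT4 (orange, right), with the mean ± SD of the 3 arrays beside them. The 12 genes were taken from those named for arrays without overlap, so the separation in each panel was a condition of choice. CT15 replicate 3 is the highest night array in all of the lower row.

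Of 8 listed genes of G protein signalling with a known SCN rhythm, 2 passed, in opposite directions, where 0.557% of all genes passed. The list was chosen for that rhythm, and the count describes it. Rgs16, whose product ends signalling of inhibitory G proteins and which is rhythmic in the dorsal SCN, read 8.79, 8.72 and 8.79 at CT15, against 10.07, 9.93 and 9.98 at CT4 (−1.23 ± 0.17; limma adjusted p 9.45e-04). The arrays of each time lay within 0.2 of one another and the times were 2.34-fold apart. Rasd1, which encodes the Ras-like G protein Dexras1, read 8.37, 8.18 and 8.61 at CT15, against 7.55, 7.29 and 7.17 at CT4, a 2.07-fold difference (1.05 ± 0.16; limma adjusted p 0.00289). Rgs4 read 8.86, 8.62 and 8.57 at CT15, against 9.11, 9.05 and 9.02 at CT4, and lay just under the fold limit (−0.38 ± 0.10; limma adjusted p 0.0628). The other 5 of the 8 genes of this list did not pass. Rasl11b, a small GTPase of the Ras family outside the list, read 6.04, 5.77 and 5.79 at CT15, against 6.94, 6.97 and 6.89 at CT4 (−1.07 ± 0.16; limma adjusted p 0.00282). The calls of Rgs16, Rasd1 and Rasl11b held whichever array was left out.

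Fabp7, which encodes the fatty acid binding protein of astrocytes and radial glia, had the largest difference of all genes that passed. It read 7.88, 7.81 and 7.73 at CT15, against 9.42, 9.42 and 9.40 at CT4, a 3.05-fold lower level in the early night (−1.61 ± 0.098; limma adjusted p 4.68e-11). It passed in every alternative run with at least 2 arrays a side, including the fit of the 6 arrays alone and each array left out. At CT22 the U0126-Light mean was 9.54, close to the CT4 mean of 9.42 and above the CT15 mean of 7.81. Of 11 other astrocyte markers measured none passed, with a median of −0.175, and the mean level of the list was 8.29 to 8.32 in the CT15 arrays and 8.36 to 8.47 in the CT4 arrays.

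Of 14 genes of lipid and energy metabolism measured, 2 passed, both lower at CT15, and the median was −0.106. Slc2a1, the glucose transporter of the blood-brain barrier and astrocytes, read 9.38, 9.30 and 9.36 at CT15, against 9.67, 9.77 and 9.79 at CT4 (−0.40 ± 0.075; limma adjusted p 0.0109). Fasn, fatty acid synthase, read 8.30, 8.36 and 8.12 at CT15, against 8.70, 8.66 and 8.66 at CT4 (−0.41 ± 0.093; limma adjusted p 0.0275). Slc2a1 fell under the fold limit without CT15 replicate 2 or CT4 replicate 3, after quantile normalization and with either sex covariate, and Fasn lost the call without CT15 replicate 3. None of 19 oxidative phosphorylation genes passed, with 16 differences below 0 and a median of −0.149. Among the lower genes named after their values were seen were Cs (citrate synthase, −0.40), Got2 (mitochondrial aspartate aminotransferase, −0.39), Atp5d (a subunit of ATP synthase, −0.41) and Chchd10 (a mitochondrial intermembrane protein, −0.55), as well as the tubulins Tubb2a (−0.43), Tubb4b (−0.39) and Tuba4a (−0.40). Of these 7, Atp5d and Chchd10 kept the call whichever array was left out, while the other 5 lost it without CT15 replicate 3, Cs, Tuba4a and Tubb4b also without CT4 replicate 3, and Tubb4b also without CT15 replicate 2. Plin4, a lipid droplet protein and a target of glucocorticoids, was higher, with 6.04, 6.02 and 6.02 at CT15, against 5.51, 5.66 and 5.62 at CT4 (0.43 ± 0.11; limma adjusted p 0.0399). It was the 1 member of 15 glucocorticoid-responsive genes that passed, and it lost the call without CT15 replicate 2 or 3 or CT4 replicate 1 or 3. In the same list Klf9 was past the p threshold in the other direction, under the fold limit (−0.28; adjusted p 0.027).

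The remaining genes with the largest increases and decreases had varied roles. Cdh19, a cadherin, read 6.59, 6.42 and 6.86 at CT15, against 5.70, 5.81 and 6.03 at CT4 (0.78 ± 0.18; limma adjusted p 0.0327). Kcnh8, a subunit of a voltage-gated potassium channel, read 6.59, 6.69 and 6.98 at CT15, against 6.13, 6.13 and 6.04 at CT4 (0.66 ± 0.16; limma adjusted p 0.0378). Cobll1, related to the actin regulator Cordon-bleu, read 6.79, 6.83 and 7.01 at CT15, against 6.27, 6.30 and 6.31 at CT4 (0.58 ± 0.091; limma adjusted p 0.00402). Ccn3 (a secreted matrix protein), Fam122b, P2ry13 (an ADP receptor of microglia), H2al1n (a histone variant) and Trmt9b were higher by 0.76, 0.57, 0.56, 0.53 and 0.52, with adjusted p between 0.027 and 0.0808. On the lower side Igfbp7, a secreted binding protein of insulin-like growth factors, read 7.35, 7.31 and 7.64 at CT15, against 8.02, 8.04 and 7.98 at CT4 (−0.58 ± 0.12; limma adjusted p 0.0157). Clec2d (a lectin-like membrane protein), Necab1 (a neuronal calcium-binding protein), Tac2 (the precursor of neurokinin B) and Tmem179 were lower, with differences of −0.93, −0.69, −0.63 and −0.57. Of these 13 genes Cobll1 and Igfbp7 kept the call whichever array was left out, and Tmem179 lost it without CT15 replicate 3. Cdh19 lost it without CT15 replicate 3 or CT4 replicate 1 or 2, Kcnh8 and Fam122b without CT15 replicate 3 or CT4 replicate 2 or 3, P2ry13 without CT15 replicate 2 or 3 or CT4 replicate 2, and Trmt9b and Tac2 without CT15 replicate 2 or 3 or CT4 replicate 2 or 3. Necab1 and Ccn3 kept it only without CT15 replicate 1, Clec2d only without CT4 replicate 1, and H2al1n in none of the 6 cases.

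Genes read as markers of ERK signalling and of neuronal activity did not pass. None of 20 ERK feedback and target genes passed, with a median of −0.0437, 9 higher and 11 lower. Spred3, an inhibitor of the Ras and ERK cascade, had the smallest adjusted p of them (−0.24; adjusted p 0.0967), and Dusp4, an ERK phosphatase, differed by −0.38 (95% interval −0.661 to −0.0904; adjusted p 0.172). None of 28 immediate early genes passed, with a median of 0.0102 and a range of −0.389 to 0.53, 16 higher and 12 lower. The 95% intervals still allowed differences of over 1.3-fold for some of them. Npas4, which follows calcium entry, read 6.72, 6.79 and 6.17 at CT15, against 6.30, 6.09 and 5.78 at CT4, with overlap (0.51, 95% interval 0.116 to 0.896; limma adjusted p 0.179). Egr2 read 6.61, 6.69 and 6.60 at CT15, against 6.19, 6.53 and 6.12 at CT4, without overlap (0.36; adjusted p 0.169). Fos, picked out after its values were seen, had U0126-Light means of 8.80 at CT15 and 8.27 at CT4. In DMSO-Sham its means were 8.16 and 8.89, the other way, and this gap between the treatments did not pass. None of the 12 SCN identity factors, 15 GABA and ion channel genes, 13 heat shock and temperature-responsive genes or 10 ribosomal protein genes passed, with medians of 0.137, −0.0879, −0.0432 and −0.0416.

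**Figure D3:**
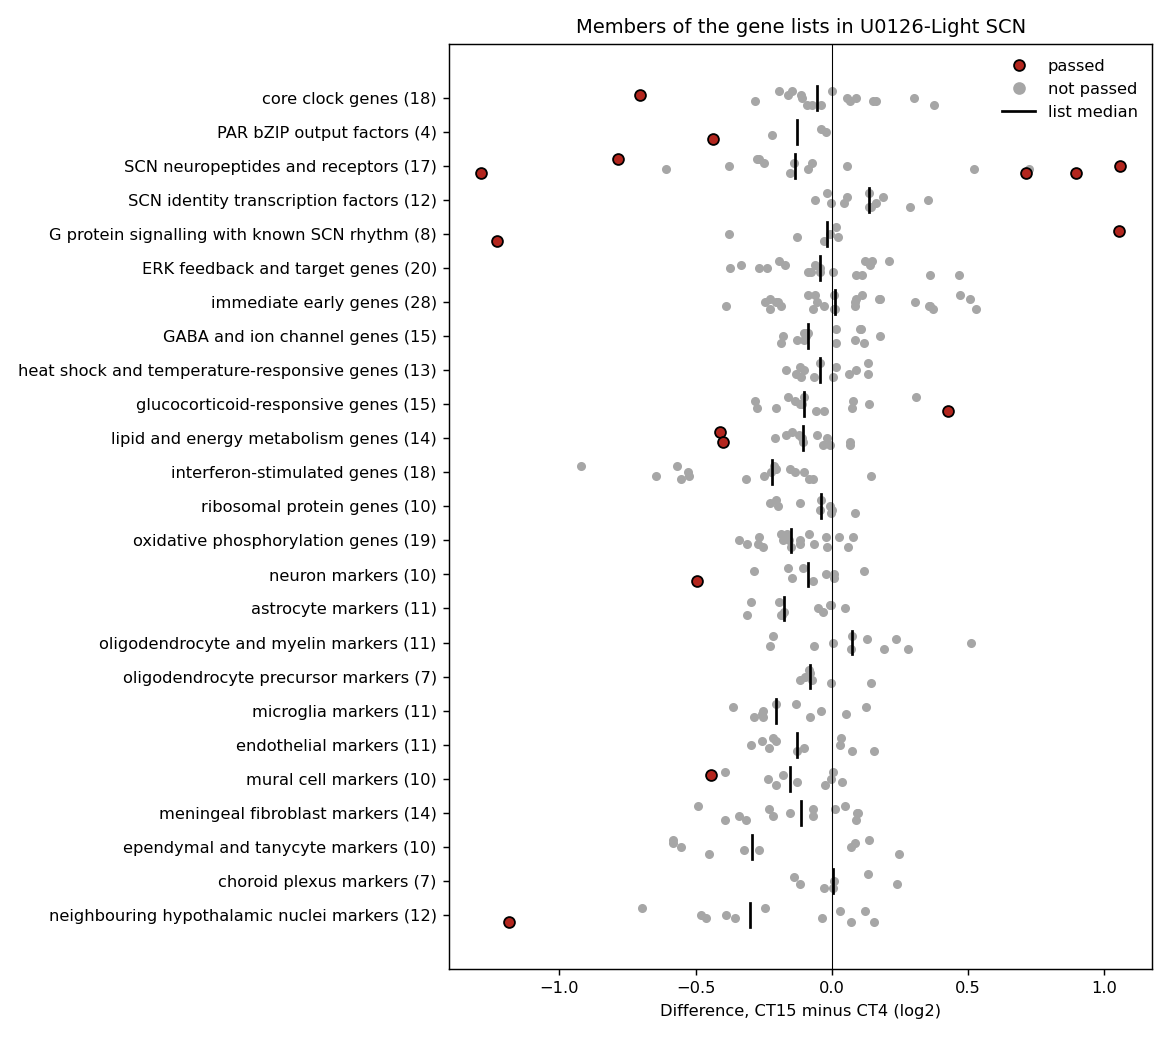
Difference of CT15 minus CT4 (log2, x axis) of every measured member of 25 gene lists (y axis, number measured in parentheses), with passed genes in red, the others in grey and the list median as a black bar. The red points lie in 9 of the lists, and the SCN peptides and receptors hold 5 of the 15.

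Markers of other cells moved with some of the results. Oxt, which encodes oxytocin and marks the neighbouring paraventricular and supraoptic neurons, read 11.19, 10.29 and 10.50 at CT15, against 12.00, 11.78 and 11.76 at CT4 (−1.19 ± 0.31; limma adjusted p 0.0483). It lost the call without any array but CT15 replicate 1. It was the 1 gene to pass of 12 markers of neighbouring hypothalamic nuclei, of which 8 were lower. The mean level of that list was 6.16 to 6.44 in the CT15 arrays and 6.57 to 6.59 in the CT4 arrays. Vasopressin is also made in those neighbouring neurons, and in each group the array with the highest Oxt had the highest Avp. The part that neighbouring tissue had in the Avp difference was not tested. None of 10 ependymal and tanycyte markers passed (median −0.294), and their mean level was lowest in CT15 replicate 2, at 5.71, against 6.04 and 6.10 in the other CT15 arrays and 6.08 to 6.25 in the CT4 arrays. None of 18 interferon-stimulated genes passed (median −0.218), and CT4 replicate 2 stood at 5.72, against 4.79 and 5.01 in the other CT4 arrays and 4.72 to 4.97 in the CT15 arrays. Vtn, a marker of mural cells, was the 1 of 10 such markers to pass, with 6.77, 6.84 and 6.74 at CT15, against 7.21, 7.27 and 7.19 at CT4 (−0.44 ± 0.11; limma adjusted p 0.0405). Nefl, a neurofilament, was the 1 of 10 neuron markers to pass, with 9.06, 9.31 and 9.05 at CT15, against 9.59, 9.59 and 9.72 at CT4 (−0.50 ± 0.12; limma adjusted p 0.0364). Vtn lost the call without CT15 replicate 3 or CT4 replicate 2 or 3, and Nefl without CT15 replicate 3 or CT4 replicate 3. None of the listed markers of oligodendrocytes and their precursors, microglia, endothelium, meninges or choroid plexus passed (0 of 11, 7, 11, 11, 14 and 7). Of the 11 microglia markers 9 were lower at CT15 (median −0.204), as were 6 of the 7 oligodendrocyte precursor markers (median −0.0819). Of the 11 oligodendrocyte and myelin markers 8 were higher (median 0.0753). Outside the lists, P2ry13, a microglial ADP receptor gene, and Olig2, a factor of the oligodendrocyte lineage, were higher at CT15 (0.56 and 0.46). Olig2 was picked out after its values were seen, and it lost the call without CT15 replicate 2 or 3 or CT4 replicate 1.

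The paper reports as many females as males in every group, but the pools compared here did not read that way. Xist, which is made from the inactive X chromosome of females, read 9.87, 3.48 and 10.04 at CT15, and 9.44, 10.21 and 10.08 at CT4, while the Y-linked Uty read 6.21, 7.26 and 6.43 at CT15, and 6.26, 3.54 and 3.64 at CT4. CT15 replicate 2 thus read as male alone, CT4 replicates 2 and 3 as female alone, and the other 3 arrays as both sexes. Sex was therefore uneven along the contrast, with more male tissue at CT15 and more female tissue at CT4. With the mean of 3 Y-linked genes as a covariate 106 genes passed, 92 of them among the 168, and with Xist as a covariate 158 passed, 134 of them among the 168. Of the genes named here, Prok2, Prokr2, Oxt, Tac2, Slc2a1, Ccn3, Necab1, Clec2d, Trmt9b and H2al1n lost the call with the Y-linked covariate, and Ccn3, Clec2d, Necab1 and Slc2a1 with Xist. In a fit whose only U0126-Light arrays at these times were the 3 of both sexes (2 against 1), 1 gene passed, Fabp7. The lone CT4 array is there assumed to vary like the arrays of the other groups.

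Of 597 miRNA genes, 13 were higher and 1 was lower at CT15 (2.35% passed, against 0.557% of all genes). The class as a whole lay higher, with a median difference of 0.0617, against 0.0105 over all genes. The probe sets are assigned to the miRNA genes, and the data do not separate mature forms from precursors. For 2 of the 14, Mir325 and Mir669m-2, the probe set is named for another chromosome than the gene's, and their sequences are not shown. The mature sequences of 5 are given because they include the largest difference, a neighbouring pair and the 1 lower gene, with the seed (bases 2 to 8), which pairs with target transcripts, in capitals. The 5 seeds all differ. Mir99a (chr16:77598936-77599000) and Mirlet7c-1 (chr16:77599657-77599750) lie within 1 kb of each other.
mmu-miR-99a-5p: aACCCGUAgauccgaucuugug
mmu-let-7c-5p: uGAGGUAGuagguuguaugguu
mmu-miR-687: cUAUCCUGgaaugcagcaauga
mmu-miR-218-5p: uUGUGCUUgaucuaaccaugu
mmu-miR-882: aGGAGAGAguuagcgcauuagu

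Mir99a read 5.66, 5.66 and 5.92 at CT15, against 4.99, 5.14 and 5.15 at CT4 (0.65 ± 0.14; limma). Its neighbour Mirlet7c-1 read 4.90, 4.95 and 4.92 at CT15, against 4.34, 4.44 and 4.10 at CT4 (0.63 ± 0.15). Both were higher in every night array of U0126-Light. In U0126-Sham the CT15 and CT4 means were 5.54 and 5.16 for Mir99a, and 4.81 and 4.19 for Mirlet7c-1. In both vehicle groups they were slightly lower at CT15. Mir99a had means of 5.16 and 5.3 in DMSO-Light, and 5.07 and 5.18 in DMSO-Sham. For Mirlet7c-1 the means were 4.52 and 4.62, and 4.2 and 4.31. Mir218-1 read 6.20, 6.55 and 6.45 at CT15, against 5.80, 5.76 and 5.64 at CT4 (0.66 ± 0.16), and Mir687 read 4.02, 4.66 and 4.55 at CT15, against 3.86, 3.72 and 3.52 at CT4 (0.71 ± 0.17). Mir882 was lower, with 3.02, 3.47 and 3.18 at CT15, against 3.89, 4.00 and 3.87 at CT4 (−0.70 ± 0.14). Several of these levels lie near or below the array medians. Mir218-1 and Mir687 were also higher at CT15 in each other treatment, by little in DMSO-Sham. Mir882 was lower in U0126-Sham (3.2 against 3.56) and nearly level in the vehicle groups. The U0126-Light differences of Mir99a and Mirlet7c-1 lay above those of DMSO-Light by 0.796 (95% interval 0.387 to 1.2) and 0.733 (0.3 to 1.17). The gaps to DMSO-Sham were 0.766 and 0.737. The intervals are not adjusted for the number of probe sets, and none of these gaps passed. Mir99a and Mir882 lost the call without CT15 replicate 3, Mirlet7c-1 without CT15 replicate 2 or 3 or CT4 replicate 3, and Mir218-1 and Mir687 without CT15 replicate 2 or 3 or CT4 replicate 2 or 3.

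The same CT15 minus CT4 difference in the other 3 treatments rests on separate arrays, though on a shared estimate of the spread. Y-linked signal differed between the times there too. The mean of Eif2s3y was 5.54 at CT15 and 4.19 at CT4 in U0126-Sham, and 5.78 and 4.14 in DMSO-Sham. Both leaned as in U0126-Light (6.54 and 4.05), while DMSO-Light went the other way (5.68 and 7.13). What part sex had in the overlap below was not tested. More genes passed there: 651 in U0126-Sham (2.16%), 609 in DMSO-Light (2.02%) and 701 in DMSO-Sham (2.32%). Of the 168 genes of U0126-Light, 76 passed in the same direction in U0126-Sham (45.2% of the 168 and 11.7% of the 651), 58 in DMSO-Light (34.5% and 9.52%) and 58 in DMSO-Sham (34.5% and 8.27%), and none passed in the opposite direction. The correlation of the differences across the 30176 genes, which are not independent, was 0.587 with U0126-Sham, 0.437 with DMSO-Light and 0.366 with DMSO-Sham. In all 4 treatments 34 genes passed the same way, among them Fabp7, Avp, Rgs16, Rasl11b, Oxt, Prok2, Nr1d1 and Dbp on the lower side and Vipr2, Rasd1, Avpr1a, Cdh19, Prokr2, Kcnh8 and Cobll1 on the higher side. Of the 89 protein-coding genes, 87 had the same sign in U0126-Sham, 87 in DMSO-Light and 87 in DMSO-Sham. Each treatment was counted separately, so these need not be the same genes. Of all 168 genes the same sign was seen for 161 in U0126-Sham, 150 in DMSO-Light and 142 in DMSO-Sham, against 70.6%, 64.7% and 60.4% of all genes.

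**Figure D4:**
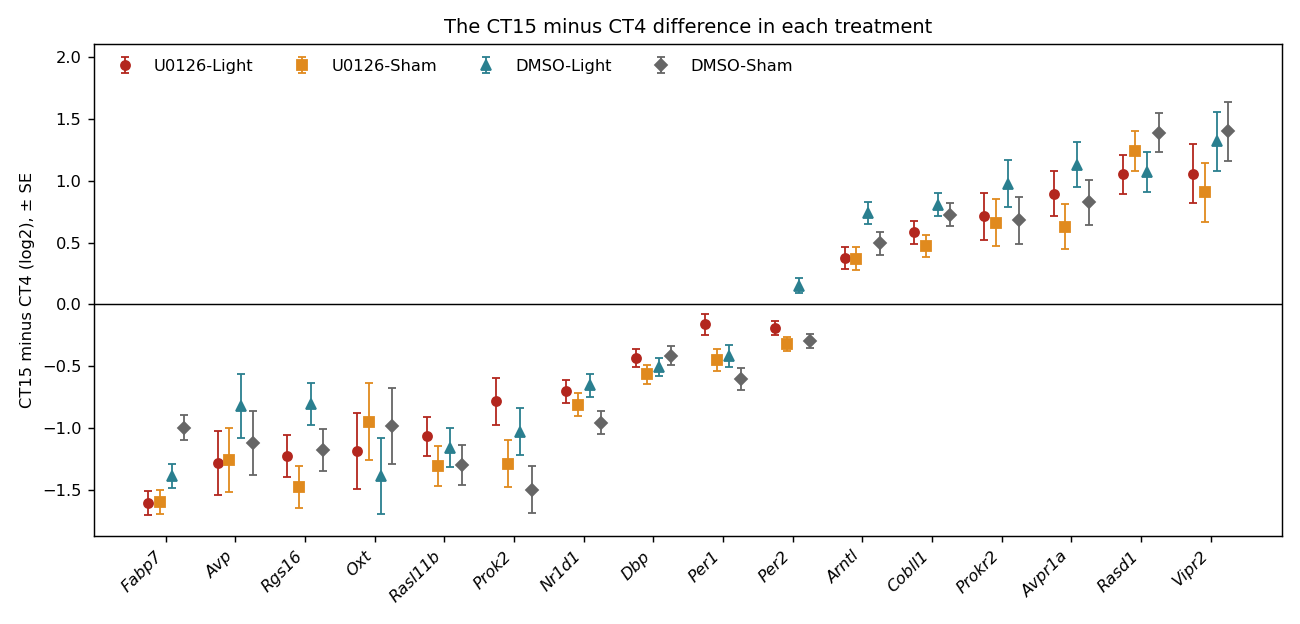
Difference of CT15 minus CT4 (log2 ± SE, y axis) of 16 genes (x axis) in U0126-Light, U0126-Sham, DMSO-Light and DMSO-Sham, 3 arrays per treatment and time. The 4 treatments share the sign in every gene plotted except Per2, where DMSO-Light is above 0 and the other 3 are below.

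The differences themselves were then compared between treatments. Against U0126-Sham, the same drug without light, no gene differed (0 of 30176, 0%), and the smallest adjusted p over all probe sets was 0.765. Of the 65956 probe sets 2349 had an unadjusted limma p under 0.05. That share is under the 0.05 to be had without any difference. For Fabp7 the differences of −1.61 in U0126-Light and −1.60 in U0126-Sham were apart by −0.00529 (95% interval −0.289 to 0.278), for Avp by −0.0287 (−0.772 to 0.714), for Vipr2 by 0.15 (−0.534 to 0.838) and for Rasd1 by −0.19 (−0.649 to 0.271). The intervals of Avp and Vipr2 leave room for a difference of over 1.3-fold either way. The CT15 minus CT4 difference of Per1 was −0.16 in U0126-Light, against −0.45 in U0126-Sham, −0.42 in DMSO-Light and −0.60 in DMSO-Sham. None of the 3 gaps passed (0.29, 0.25 and 0.44, with limma adjusted p of 1, 0.747 and 0.212). Their 95% intervals, not adjusted for the number of probe sets, lay above 0 (0.0364 to 0.541, 0.00232 to 0.507 and 0.189 to 0.694). The CT15 minus CT4 difference of Per2 was −0.19 in U0126-Light, against 0.15 in DMSO-Light. This gap of −0.34 (95% interval −0.513 to −0.177) had a limma adjusted p of 0.488 over all probe sets. For Arntl the gap to DMSO-Light was −0.365 (−0.629 to −0.1), which did not pass either. Against DMSO-Sham, neither drug nor light, the Fabp7 difference was −0.61 (95% interval −0.895 to −0.327; adjusted p 0.13).

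Against DMSO-Light 3 of 65956 probe sets differed (0.00455%), all without a gene symbol. Against DMSO-Sham 23 differed (0.0349%), 17 of them without a symbol. The other 6 were Clk1, Gm24289, Mir703 and the near-identical U3 RNA genes Rnu3b1, Rnu3b2 and Rnu3b3, which gave 1 shared signal. At an unadjusted limma p under 0.05 there were 4393 and 6682 of the 65956 probe sets, both a share above 0.05. Clk1, which encodes a kinase of splicing factors, read 7.75, 7.67 and 7.81 in U0126-Light at CT15, against 7.81, 7.72 and 7.96 at CT4, a difference of −0.0859. In DMSO-Sham it read 8.05, 8.08 and 8.07 at CT15, against 7.57, 7.61 and 7.51 at CT4, a difference of 0.50, so that the 2 differences were apart by −0.59 ± 0.11 (limma adjusted p 0.0847). This call was lost without any one of 8 of the 12 arrays. In U0126-Light the differences of Gm24289 and Mir703 were 0.17 and 0.0069, so the calls rest on the change in DMSO-Sham. Of the 168 genes 67, including 17 protein-coding genes such as Clec2d, P2ry13, Fasn, Slc2a1 and Olig2, passed in U0126-Light and in no other treatment. None of the 67 differed from another treatment in these tests, and P2ry13 came with 0.54 (95% interval 0.172 to 0.91) above U0126-Sham and an adjusted p of 1.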

How the data were processed

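Per the labels and the study's methods, RNA from the SCN of 2 pooled mice per array was hybridised to a whole-transcript mouse array, and the authors processed the arrays in R with oligo and called genes with limma. The normalization call and the version of oligo are not given in the sources used here. The authors deposited log2 values for 72688 probe sets, 6732 of them controls, which were left out. The platform annotation gave 1 symbol to 30638 of the other 65956, several to 2176 and none to 33142. A gene was read by its brightest probe set (354 genes had more than 1).

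Group means of all 36 arrays (12 groups of 3, 24 residual degrees of freedom) were fitted with limma 3.58.1 in R 4.3.3, with Benjamini-Hochberg adjustment over all 65956 probe sets. Precision is set by having 3 arrays per group. The spread was estimated over the 12 groups together, so p-values measure the spread between pools within groups of the series. The labels name no batch, and a batch that followed the time could not be told apart from it. The members, the gene lists and the tests were chosen with earlier results of these data known. Named were the 12 largest increases and 12 largest decreases that passed without overlap (predicted, small RNA and sex-linked genes left out), every clock and PAR bZIP gene, up to 4 genes of each other list with the smallest p, and up to 5 per difference test. The script was tested on simulated data. Alternatives varied the arrays, probe sets, scaling, fit and thresholds, and the sex covariates were added after seeing the data. Motif positions and sequences came from RefSeq tables (GRCm38.p6).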

Additional observations from a re-analysis of the deposited data

Results flagged for a closer look

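The 6 results here stood out because the CT15 minus CT4 change differed between U0126-Light and another treatment. Clk1 changed by −0.586 relative to DMSO-Sham (limma adjusted p 0.0847), Gm24289 by 1.90 (0.0847), the shared signal of Rnu3b1, Rnu3b2 and Rnu3b3 by 0.745 (0.0847) and Mir703 by −0.974 (0.0903). Leaving out each of the 12 arrays in turn kept the call of Clk1 in 4 fits, of Gm24289 in 6 and of Rnu3b1 and Mir703 in 5 each, and the highest adjusted p was 0.302, 0.302, 0.314 and 0.301. All 4 lost it without U0126-Light CT15 replicate 2 or U0126-Light CT4 replicate 1 or 3, and without DMSO-Sham CT15 replicate 2 or 3 or DMSO-Sham CT4 replicate 2. Gm24289 read 4.78, 5.00 and 4.58 in U0126-Light at CT15, against 4.68, 5.06 and 4.11 at CT4, and 4.17, 3.66 and 3.31 in DMSO-Sham at CT15, against 5.25, 5.82 and 5.26 at CT4. Among probe sets without a symbol, 17 differed from DMSO-Sham, with values from −1.40 to 1.58, of which 16 were positive, and 3 differed from DMSO-Light, with values from −1.44 to 1.07. The groups of 3 arrays are too small for a test of outlying arrays.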

How the results depend on the processing

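No named gene that passed changed sign under any of the 22 alternatives that bear on it, but counts moved. The fit of the 6 arrays alone called 3 probe sets and 3 genes, having fewer arrays to estimate the spread. Quantile normalization within the named probe sets, small RNAs left out, called 134 probe sets, 74 higher and 60 lower, and testing only probe sets with 1 symbol called 228; both test fewer probe sets. Array weights called 1659 probe sets and 273 genes, an adjusted p of 0.05 called 446 and 106, no fold threshold 2128 and 1114, and an unadjusted p of 0.1 called 2399 and 369. The Y-linked covariate called 401 and 106, and the 3 pools of both sexes 2 and 1. Leaving out 1 array gave 99 to 2029 probe sets and 40 to 309 genes.

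Against U0126-Sham 0 differed in every alternative but the unadjusted p (1715), leave-one-out fits included (0 to 0). Against DMSO-Light the count of 3 became 0 in the 24 arrays of CT4 and CT15, under quantile normalization and with 1-symbol probe sets, 1 without dim probe sets and under cyclic loess, 8 with array weights, 2861 at the unadjusted p, and 0 to 5 without 1 array. Against DMSO-Sham the count of 23 became 12 in the 24 arrays, 5 under cyclic loess, 0 under quantile normalization and with 1-symbol probe sets, 480 with array weights, 4 at an adjusted p of 0.05, 4290 at the unadjusted p, and 0 (without U0126-Light CT15 replicate 2, U0126-Light CT4 replicate 3 or DMSO-Sham CT15 replicate 3) to 253 (without DMSO-Sham CT15 replicate 1) in the leave-one-out fits. The causes were not tested.

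Same-numbered arrays did not deviate together (correlations −0.189, 0.0331 and 0.0712, and 1 of 6 arrays correlated best with its own number). With the replicate block 935 probe sets and 171 genes passed, 162 of them among the 168, and 15 differed from DMSO-Sham.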
